A study of Homo sapiens with 9 samples.

Results

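The DHRS genes encode members of the short-chain dehydrogenase/reductase superfamily, and 8 of them were described here: DHRS1, DHRS2, DHRS3, DHRS4, DHRS7, DHRS9, DHRS11 and DHRS13. They were found by gene symbol among the 67071 genes of the count table. The family was chosen from earlier results of these data in which DHRS2 was among the genes far below the control with both hairpins. The values of all members against the control are therefore a description, given without p-values, and counts of members past the threshold in those comparisons support nothing. RNA was sequenced from 22Rv1 cells, an established human prostate carcinoma line grown from a xenograft that expresses the androgen receptor. The 9 libraries were 3 with a hairpin against GFP (shGFP, the control), 3 with a first hairpin against CHD9 (hairpin 1) and 3 with another CHD9 hairpin (hairpin 2). CHD9 is a chromodomain helicase of the SNF2 type. All 9 came from the same line in RPMI 1640 medium with 10% fetal bovine serum, and the labels name neither the vector nor the selection nor the time after the hairpins were introduced.

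Short-chain dehydrogenases are single-domain oxidoreductases that bind NAD(H) or NADP(H) in a Rossmann fold and convert alcohols to carbonyls or the reverse. Their substrates include retinoids, steroids, prostaglandins, lipids and foreign carbonyl compounds. In prostate cells the superfamily is best known for steps that activate or inactivate steroids and for the interconversion of retinol and retinal, the precursors of retinoic acid. DHRS3 reduces retinal back to retinol, DHRS9 oxidises retinol and 3-alpha-hydroxysteroids, and DHRS4 is a peroxisomal NADPH-dependent carbonyl reductase. DHRS7 is a membrane enzyme of the endoplasmic reticulum that reduces steroid and retinoid carbonyls, and DHRS11 has been assigned 17-beta-hydroxysteroid dehydrogenase activity. DHRS2, also called Hep27, is a dicarbonyl reductase that has been found in mitochondria and the nucleus.

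The 250 bases before the start sites of DHRS2, DHRS3 and DHRS13 are shown because these genes moved in different directions and to different degrees. They come from RefSeq (build GRCh38.p14), whose table held start sites of 7 of the 8 genes. Bases are in lower case, and capitals mark matches to the core of the TATA box (TATAAA), the CCAAT box, the E-box (CACGTG), the GC box (GGGCGG) or the single nuclear receptor element (AGGTCA), each searched on either strand. These are DHRS2 at chr14:23629865-23630114 on the plus strand, the outermost of 3 start sites of DHRS3 at chr1:12618211-12618460 on the minus strand, and DHRS13 at chr17:28903080-28903329 on the minus strand.
DHRS2: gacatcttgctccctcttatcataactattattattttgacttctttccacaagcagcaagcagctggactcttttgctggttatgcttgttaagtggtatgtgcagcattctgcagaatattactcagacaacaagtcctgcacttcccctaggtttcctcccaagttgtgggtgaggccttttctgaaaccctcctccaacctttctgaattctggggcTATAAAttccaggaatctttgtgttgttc
DHRS3: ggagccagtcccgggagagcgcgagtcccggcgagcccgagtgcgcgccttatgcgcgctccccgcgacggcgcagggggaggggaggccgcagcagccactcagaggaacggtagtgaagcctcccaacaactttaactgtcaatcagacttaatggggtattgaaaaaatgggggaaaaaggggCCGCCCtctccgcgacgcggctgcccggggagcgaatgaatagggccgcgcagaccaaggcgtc
DHRS13: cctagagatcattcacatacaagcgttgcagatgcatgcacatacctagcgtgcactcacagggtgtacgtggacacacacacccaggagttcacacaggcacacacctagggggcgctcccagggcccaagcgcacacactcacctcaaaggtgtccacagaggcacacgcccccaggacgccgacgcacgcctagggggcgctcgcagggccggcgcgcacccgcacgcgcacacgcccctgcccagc

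The DHRS2 sequence held no CpG, had a GC content of 43.2%, and carried 1 TATAAA on the forward strand, whose first base lay 29 bases before the start. Over the 35116 RefSeq promoters of this length, 10.7% held TATAAA, 6.06% had no CpG, and 1.83% had both features. Both other sequences had a GC content of 65.2%, against a median of 58.0% for all promoters. DHRS3 had 26 CpGs and 1 GC box, read as CCGCCC and beginning 64 bases before the start, and GGGCGG was found on either strand in 42.6% of promoters. DHRS13 had 19 CpGs, against a median of 11, and none of the motifs searched. CCAAT was present in 32.0%, CACGTG in 6.34% and AGGTCA in 12.1% of all promoters, and in none of these 3 windows. The DHRS3 values hold for its outermost start site only. Start sites 2 and 3 of DHRS3, not shown, had 10 and 3 CpGs and a GC content of 58.8% and 54.8%. Site 3 also carried 1 AGGTCA, on the reverse strand. The features of the DHRS2 window were not its own within the family. Start site 1 of DHRS9, not shown, held 0 CpGs, had a GC content of 39.2% and carried 2 TATAAA. Start site 4 of DHRS9 held 0 CpGs and 0 TATAAA, and its sites 2 and 3 had 2 and 1 CpGs with 1 TATAAA each. A match is a description of letters, not a bound site.

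Libraries held 18911142 to 31968602 counts, 3.66% to 4.07% of them from mitochondrial genes. Levels are given as CPM (counts scaled to a common library total) with totals adjusted by the trimmed mean of M-values (TMM). The targeted gene was checked first: CHD9 was at 22.8, 20.6 and 23.2 CPM in the control libraries. Hairpin 1 left 14.8, 16.7 and 14.9 CPM of it, and hairpin 2 left 18.4, 18.8 and 19.3 CPM. It was lower with both hairpins, by 0.52 and 0.24 on the log2 scale, so hairpin 2 left more CHD9 RNA than hairpin 1. The adjusted p for hairpin 1 against hairpin 2 was 0.0024 (edgeR quasi-likelihood test, Benjamini-Hochberg). All 8 luminal markers were tested, and their summed level was 1861 to 1896 CPM in shGFP, 2143 to 2169 with hairpin 1 and 2020 to 2045 with hairpin 2. Basal markers summed to at most 0.105 CPM with 1 of 3 at 0, endothelial markers to at most 0.268 CPM with 2 of 4 at 0, and leukocyte markers to 0.421 to 0.714 CPM with 1 of 4 at 0. Fibroblast markers, none of 5 at 0, summed to 7.16 to 7.81 CPM in shGFP, 8.18 to 8.80 with hairpin 1 and 7.83 to 9.34 with hairpin 2. These sums hide opposite directions. Over both hairpins the log2 changes of the 3 fibroblast markers tested ran from -3.93 to 0.52, with a median of -0.33. Those of the 8 luminal markers ran from -0.29 to 1.80. The part of these marker shifts in the results on DHRS genes was not tested.

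Of the 8 genes, 4 passed the filter on low counts (DHRS2, DHRS3, DHRS7 and DHRS13), DHRS11 had a few counts in every library, and DHRS1, DHRS4 and DHRS9 were listed at 0 in all 9. Per kilobase of exon, DHRS13 was the most abundant in shGFP, at 25.9 ± 1.21 CPM per kb (SD, n = 3). DHRS2 followed at 19.6 ± 0.374, DHRS7 at 17.3 ± 0.515 and DHRS3 at 10.5 ± 0.280 CPM per kb. No neighbours in this order overlapped between libraries. The levels of these 4 genes were above those of 88.6%, 84.7%, 82.7% and 73.3% of 16492 tested genes with a length. With hairpin 1 the order became DHRS13 at 32.3 ± 0.710, DHRS7 at 16.1 ± 0.781, DHRS3 at 8.60 ± 0.475 and DHRS2 at 3.09 ± 0.105 CPM per kb (SD, n = 3). DHRS2 had thus moved from second to last of the 4. With hairpin 2 it was last as well, at 7.13 ± 0.363 CPM per kb, close to DHRS3 at 8.25 ± 0.707. The highest DHRS2 library there, at 7.53, lay just under the lowest DHRS3 library, at 7.59 CPM per kb.

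**Figure D1:**
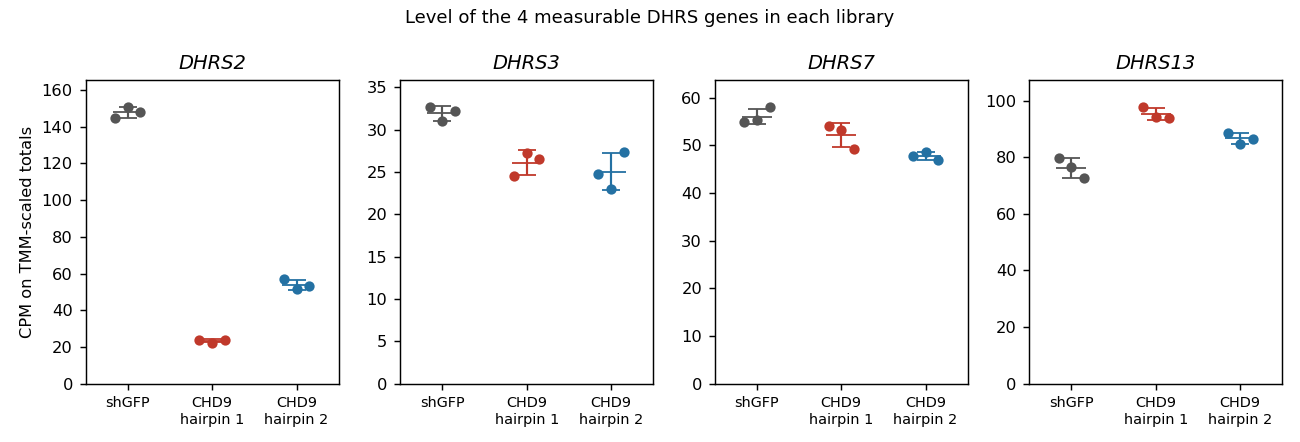
CPM on TMM-scaled totals (vertical axes, from 0) of DHRS2, DHRS3, DHRS7 and DHRS13 in each of the 9 libraries. Points are libraries, long ticks are group means and bars are SD over 3 libraries. The DHRS2 libraries lie at 3 separate levels, with means of 148, 23.4 and 53.9 CPM, while DHRS3 and DHRS7 lie slightly below and DHRS13 slightly above the control with both hairpins.

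DHRS2 (ENSG00000100867.15, GENCODE 29 position on chromosome 14 from 23630115 to 23645639, plus strand) had 2753, 3411 and 3868 counts in the shGFP libraries. It had 480, 505 and 640 counts with hairpin 1, and 1435, 1673 and 1125 with hairpin 2. Scaled to CPM, the control libraries held 145, 151 and 148, the hairpin 1 libraries 23.8, 22.5 and 23.9, and the hairpin 2 libraries 56.9, 51.6 and 53.1. Each of the 3 groups occupied a range of its own, with every hairpin 1 library lowest and every control library highest. Relative to shGFP, DHRS2 was 6.32-fold lower with hairpin 1 (log2 change -2.66, SE 0.04) and 2.75-fold lower with hairpin 2 (log2 change -1.46, SE 0.04). Averaged over both hairpins its log2 change was -2.06 (SE 0.03), and 34 of the 16855 genes tested had a more negative value. The family was chosen because DHRS2 was this low, so the rank only describes the choice. These cultures were measured in bulk, so fewer cells expressing a gene and less RNA per cell cannot be told apart.

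The direct comparison of the hairpins does not use the control libraries. It does use the hairpin libraries whose low values led to the choice of DHRS2, so for DHRS2 it is not free of that choice. DHRS2 was 2.30-fold lower with hairpin 1 than with hairpin 2 (log2 difference -1.20, SE 0.05, adjusted p = 1.7e-23, edgeR quasi-likelihood test, Benjamini-Hochberg over 16855 genes). All 3 hairpin 1 libraries lay below all 3 hairpin 2 libraries. The hairpin with less CHD9 RNA was also the one with less DHRS2 RNA, and with 2 hairpins no dose relation can be tested. A more negative difference between the hairpins was found for 53 genes.

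DHRS3 (ENSG00000162496.9, chromosome 1 from 12567910 to 12617731, minus strand), the retinal reductase, showed a much smaller shift. The control libraries held 32.6, 31.0 and 32.2 CPM, the hairpin 1 libraries 24.5, 27.3 and 26.6, and the hairpin 2 libraries 24.8, 23.0 and 27.3. Every CHD9 hairpin library was below every control library, and the libraries of both hairpins overlapped. The log2 change against shGFP was -0.29 (SE 0.06) with hairpin 1 and -0.36 (SE 0.06) with hairpin 2, and -0.32 (SE 0.05) over both. No difference between the hairpins was found for DHRS3 (log2 difference 0.07, SE 0.06, adjusted p = 0.44 by edgeR's quasi-likelihood test, Benjamini-Hochberg).

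DHRS7 (ENSG00000100612.14, chromosome 14 from 60144120 to 60169856, minus strand), the reductase of the endoplasmic reticulum, lies on the same chromosome as DHRS2 but far from it. It measured 54.9, 55.3 and 58.0 CPM in the control libraries, 54.0, 53.2 and 49.3 CPM in those of hairpin 1, and 47.9, 48.6 and 46.8 CPM in those of hairpin 2. The lowest control library was just above the highest hairpin 1 library, and the hairpin 2 libraries lay below all others. Its log2 change was -0.11 (SE 0.05) with hairpin 1, -0.23 (SE 0.05) with hairpin 2 and -0.17 (SE 0.04) over both. In contrast to DHRS2, DHRS7 was higher with hairpin 1 than with hairpin 2, by a log2 difference of 0.12 (SE 0.05, adjusted p = 0.039, edgeR quasi-likelihood test, Benjamini-Hochberg). That difference missed the threshold in 8 of 19 alternative settings, among them DESeq2 (adjusted p = 0.074) and the fits without hairpin 1 replicate 1 or 2 or without any one of the hairpin 2 replicates. Exons of DHRS7 overlap exons of PCNX4 on the opposite strand, and the sources do not say whether the counting used strand.

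DHRS13 (ENSG00000167536.14, chromosome 17 from 28897781 to 28903071, minus strand) was the 1 measurable member that was higher with the CHD9 hairpins. It stood at 79.6, 76.5 and 72.5 CPM in the control libraries, at 97.6, 94.3 and 93.7 CPM in those of hairpin 1, and at 88.7, 84.7 and 86.6 CPM in those of hairpin 2. The groups did not overlap, and their order was the reverse of that of DHRS2. Relative to shGFP its log2 change was 0.32 (SE 0.04) with hairpin 1 and 0.19 (SE 0.04) with hairpin 2, or 0.26 (SE 0.03) over both. Between the hairpins DHRS13 differed by 0.14 on the log2 scale (SE 0.04, adjusted p = 0.0038, edgeR quasi-likelihood test, Benjamini-Hochberg), hairpin 1 being higher. With a correction for transcript GC content and gene length, chosen after seeing the data, the log2 changes against shGFP were 0.16 and 0.10 and the mean of both was 0.13. The same correction brought the difference between the hairpins to 0.06, which missed the threshold (adjusted p = 0.22, edgeR quasi-likelihood test, Benjamini-Hochberg). An antisense gene, AC024267.6, overlaps exons of DHRS13.

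A gene was called at an adjusted p under 0.05. Over both hairpins against shGFP, 1 of the 4 tested members was called higher and 3 lower, where 45.5% of the 16855 genes tested were called (22.3% higher and 23.2% lower). The counts were the same with hairpin 1, where 47.3% of genes were called (23.9% higher, 23.4% lower), and with hairpin 2, where 35.7% were (17.2% higher, 18.5% lower). DHRS2 was known to pass when the family was chosen, so nothing is read from these counts. The call of DHRS7 with hairpin 1 was not made in 8 of 19 alternative settings, and its log2 change was -0.07 without hairpin 1 replicate 3 and -0.08 without shGFP replicate 3. It was also lost without shGFP replicate 2. Between the hairpins, DHRS7 and DHRS13 were called higher and DHRS2 lower with hairpin 1, against a background of 29.2% of genes (15.6% higher, 13.6% lower). The median log2 change of the 4 tested members was -0.25 over both hairpins, -0.20 with hairpin 1 and -0.30 with hairpin 2, and 0.10 between the hairpins. Over all genes tested the medians were within 0.0029 of 0, and the median size of the log2 change was 0.17 over both hairpins. DHRS2 was the 1 member whose change was many times that size.

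DHRS11 (ENSG00000278535.5, chromosome 17 from 36591798 to 36600806, plus strand) had 2, 4 and 2 counts in the control libraries, 5, 7 and 8 in those of hairpin 1, and 11, 7 and 8 in those of hairpin 2. That makes 54 counts in all, and 3 counts correspond to 0.0925 to 0.158 CPM depending on the library. The mean level was 0.119 ± 0.0515 CPM in shGFP, 0.286 ± 0.0335 with hairpin 1 and 0.343 ± 0.114 with hairpin 2 (SD, n = 3), and the control libraries were at or near the level of 3 counts. Without the filter on low counts DHRS11 passed the threshold in none of the 4 comparisons, and the log2 change over both hairpins was 1.35 (SE 0.62). Of the 7 protein-coding genes within 250 kb of DHRS11, 5 had no count in any library, ZNHIT3, PIGW and MYO19 among them. GGNBP2, a gene expressed in most tissues, had 47 counts over all 9 libraries and MRM1 had 51.

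DHRS4 (ENSG00000157326.19, chromosome 14 from 23953586 to 23969279, plus strand), DHRS1 (ENSG00000157379.14, chromosome 14 from 24290598 to 24299833, minus strand) and DHRS9 (ENSG00000073737.16, chromosome 2 from 169064789 to 169096167, plus strand) had 0 counts in every library. DHRS1 lies in a run of 36 consecutive protein-coding genes, from CARMIL3 to NFATC4 (chromosome 14 from 24052000 to 24379604), that had at most 1 count each over all 9 libraries. In that run 34 genes had 0 counts and 2 had 1 count. It includes PSME1 and PSME2, which encode the proteasome activator, the ubiquitin-like modifier gene NEDD8 and the nuclear import receptor gene IPO4, all at 0. Such genes are used by nearly every cell, so a 0 for DHRS1 is reported only as a listed value and not as absence of its RNA. Within 250 kb of DHRS4, 22 of 24 protein-coding genes (91.7%) were at 0, and within 250 kb of DHRS1 34 of 40 (85.0%) were, against 3537 of 19928 (17.7%) in the whole table. For DHRS9 the share was 2 of 5. Its neighbours NOSTRIN and LRP2 had 148 and 204 counts over all 9 libraries, but SPC25, a kinetochore gene that dividing cells use, had only 9, so the 0 of DHRS9 is given as a listed value too. None of the protein-coding neighbours within 250 kb of DHRS2 (7 genes), DHRS7 (4) or DHRS13 (16) was at 0, and 5 of 9 near DHRS3 were.

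**Figure D2:**
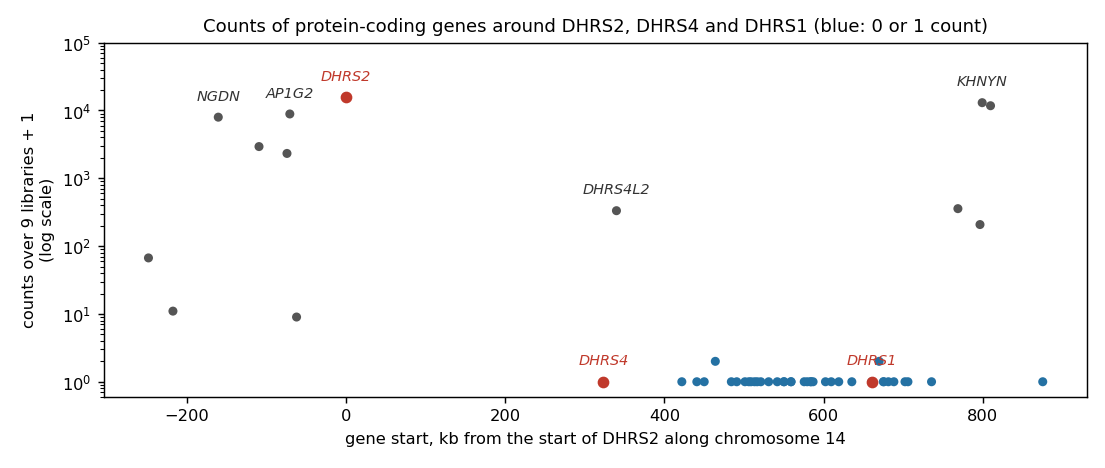
Counts over all 9 libraries plus 1 (vertical axis, log scale) of the 51 protein-coding genes around DHRS2, DHRS4 and DHRS1, by distance of the gene's start from that of DHRS2 along chromosome 14 in kb (horizontal axis). Red points are the 3 DHRS genes and blue points other genes with 0 or 1 count. DHRS2 and its neighbours were counted, whereas DHRS4 and the run of 36 genes around DHRS1 lie at the bottom of the axis.

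DHRS4 has near-identical copies beside it, and reads from them cannot be assigned with certainty. DHRS4L2 had 332 counts in all, at 1.39 ± 0.0994 CPM in shGFP, 1.74 ± 0.0967 with hairpin 1 and 1.53 ± 0.258 with hairpin 2 (SD, n = 3). It did not pass the test over both hairpins (log2 change 0.22, SE 0.21, adjusted p = 0.42, edgeR quasi-likelihood test, Benjamini-Hochberg). DHRS4L1 had no counts, and the antisense gene DHRS4-AS1, whose exons overlap those of DHRS4, had 2. From 250 kb before DHRS2 to 250 kb after DHRS1, 10 other protein-coding genes were tested. Over both hairpins 1 was called higher (NYNRIN, log2 change 0.81, at only 1.07 CPM in shGFP) and 1 lower (NGDN, -0.23). These calls were 20.0% of those tested, beside 45.5% of all genes. AP1G2, an adaptor subunit gene and the nearest tested gene before DHRS2, had a log2 change of -0.09 (SE 0.04) and was not called. JPH4, between AP1G2 and DHRS2, had too few counts to be tested. The low level of DHRS2 with the CHD9 hairpins was not accompanied by a change of similar size in any tested protein-coding neighbour. Only 11 of the 51 protein-coding genes of this stretch were tested, DHRS2 included. The nearest tested gene after DHRS2 was DHRS4L2, whose start lies 340 kb from that of DHRS2.

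Other genes named DHRS or belonging to that branch were set beside these members. Of 7 listed, 4 were tested, and over both hairpins none was called higher and 2 were called lower. BDH2, formerly DHRS6, a cytosolic hydroxybutyrate dehydrogenase, was at 20.7 ± 0.639 CPM in shGFP, 13.8 ± 0.736 with hairpin 1 and 12.2 ± 1.15 with hairpin 2 (SD, n = 3), a log2 change of -0.66 (SE 0.07). DHRS7B, a peroxisomal reductase of ether lipid synthesis and a paralogue of DHRS7, fell from 33.8 ± 1.18 to 29.6 ± 0.517 and 28.8 ± 2.37 CPM (log2 change -0.21, SE 0.05), close to the -0.17 of DHRS7. DHRS12 was at 1.55 CPM in shGFP and was not called. DHRSX and DHRS7C had no counts, which is given as a listed value and not as absence of their RNA. Between the hairpins none of the 4 was called, beside 29.2% of all genes. Under the GC content and length correction, and without hairpin 2 replicate 2, 1 of the 4 was called higher.

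Of 45 further short-chain dehydrogenases that act on carbonyls, retinol or steroids, 31 were tested, and 9 were called higher and 10 lower over both hairpins, or 61.3% of those tested beside 45.5% of all genes. Their median log2 change was 0.0075, against 0.0014 over all genes tested. The 4 with the smallest p were HPGD, the prostaglandin-inactivating dehydrogenase (log2 change -0.61, SE 0.05), the retinal reductase gene RDH11 (-0.38, SE 0.03), HSD17B7 of cholesterol synthesis (-0.62, SE 0.06) and the sepiapterin reductase gene SPR (0.27, SE 0.03). None of the 35 other tested members of the superfamily, the DHRS-named genes included, came near the log2 change of DHRS2 over both hairpins, the lowest being that of BDH2. DHRS3, DHRS7 and DHRS13 lay inside their range of -0.66 to 0.83. As DHRS2 was known to be low when the family was chosen, its place outside that range is a description.

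**Figure D3:**
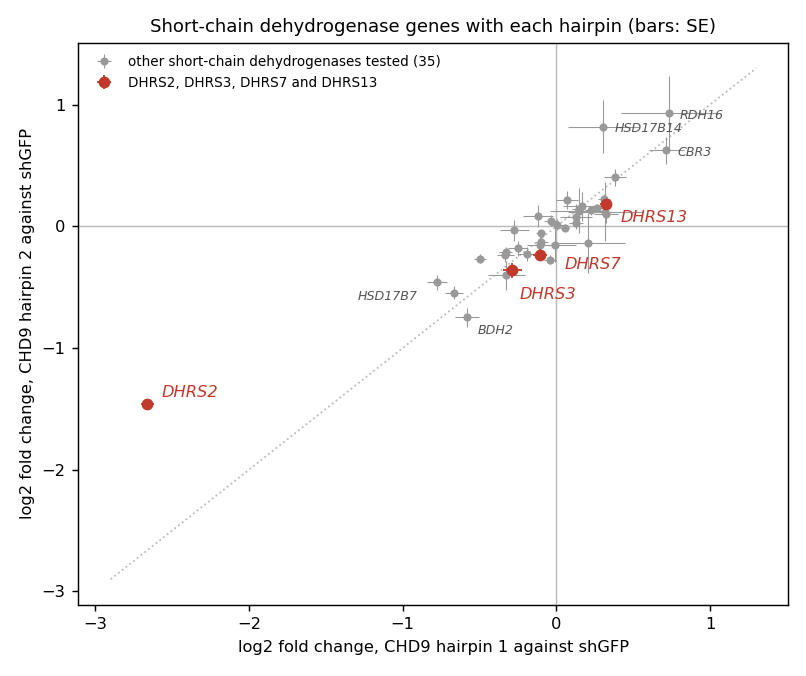
Log2 fold change against shGFP with hairpin 1 (horizontal axis) and hairpin 2 (vertical axis) of 4 DHRS genes (red) and 35 other short-chain dehydrogenases tested (grey), with SE bars. The dotted line marks equal changes, and both axes share the 3 shGFP libraries. DHRS2 lies alone at -2.66 and -1.46, and the other 3 red points lie within the grey cloud.

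Since DHRS3 acts on retinal, the genes of retinoid metabolism and its receptors were examined beside it. Of 31 listed, 20 were tested, and 7 were called higher and 4 lower over both hairpins, a share of 55.0% of those tested beside 45.5% of all genes. Nothing particular to the list is read from these counts. ALDH1A1, which oxidises retinal to retinoic acid, stood at 202 ± 6.09 CPM in the control and fell to 101 ± 0.733 CPM (hairpin 1) and 74.6 ± 2.76 CPM (hairpin 2; SD, n = 3). Its log2 change over both was -1.22 (SE 0.03). Like DHRS3 it was lower with both hairpins, but unlike DHRS3 it differed between them (log2 difference 0.43, SE 0.04, adjusted p = 1.9e-13, edgeR quasi-likelihood test, Benjamini-Hochberg). RDH11, which like DHRS3 reduces retinal, fell from 83.9 ± 2.86 CPM to 59.6 ± 1.78 and 69.9 ± 0.894. CRABP2, the carrier of retinoic acid to its receptors, rose from 8.54 ± 0.401 CPM to 18.0 ± 1.06 and 14.5 ± 1.61 CPM. The receptor genes RARB and RXRA rose with hairpin 1, by 1.23 (SE 0.18) and 0.50 (SE 0.04) on the log2 scale. With hairpin 2 neither passed the test, at 0.40 (SE 0.20) and 0.04 (SE 0.04), and both differed between the hairpins (adjusted p = 0.00018 and 3.9e-12, edgeR quasi-likelihood test, Benjamini-Hochberg). The retinol dehydrogenase gene RDH10, whose protein acts against DHRS3 in the retinol cycle, was at 19.4 CPM in shGFP and was not called over both hairpins (log2 change 0.14, SE 0.06), although it was with hairpin 2 alone (0.22, SE 0.07).

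**Figure D4:**
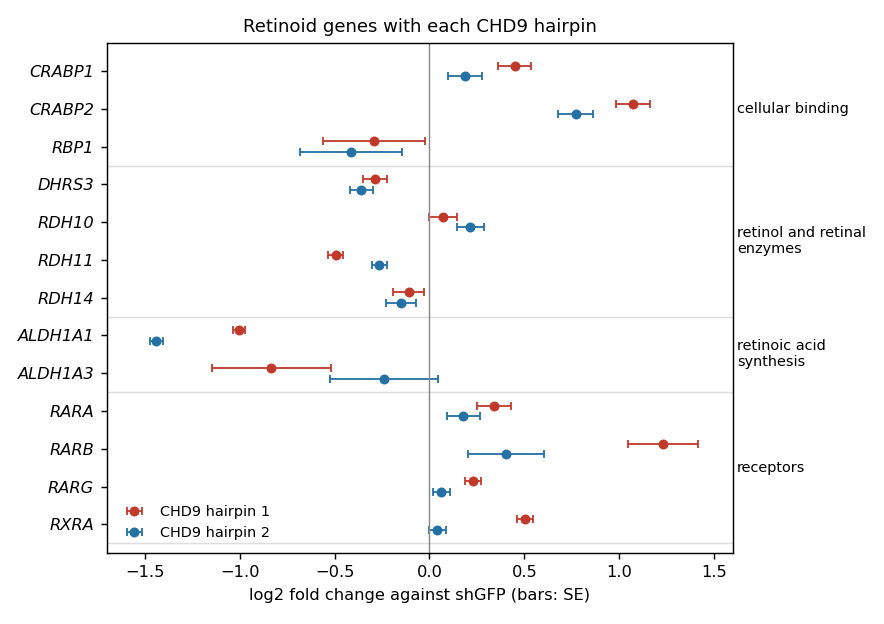
Log2 fold change against shGFP (horizontal axis, SE bars) of DHRS3 and 12 other retinoid genes with hairpin 1 (red) and hairpin 2 (blue), grouped by role. DHRS3, RDH11 and ALDH1A1 lie left of 0 with both hairpins and CRABP2 right of 0, while RXRA and RARB lie further right with hairpin 1 than with hairpin 2.

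Genes with the pattern most like a member's were ranked by Pearson's r of log2 CPM over the 9 libraries. Only tested genes of at least 5 CPM on average were ranked. Symbols of clone, LINC, antisense or divergent form, or ending in P with or without digits, were passed over. That rule also passes over protein-coding genes with such names, CRABP2 and NRIP1 among them, so closer genes may go unnamed. The libraries fall into 3 groups, so r mainly compares group levels. DHRS2 had 23 genes with r above 0.99, counted without the rule on symbols. Its nearest among the symbols kept were SIPA1L2 (r = 0.996), ASCC3, the chaperone gene HSPA5, SMOC1 and STX3. SIPA1L2 was at 112 CPM in shGFP, 44.4 with hairpin 1 and 63.2 with hairpin 2, so it had the same order of groups as DHRS2 over a narrower range. DHRS3 had no gene with r above 0.99. Its nearest among the symbols kept were TRAPPC13 (r = 0.961), TEX9, the imprinted gene MEST, TMEM170A and NIPA2. TRAPPC13 was at 22.3 CPM in shGFP and at 17.3 with each hairpin.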

How the data were processed

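The deposited table holds whole-number counts per gene for 9 libraries, which the authors made from polyA RNA with a directional kit, per the labels. The submitters' processing notes name Trim Galore, STAR, DESeq2 and hg38, without roles or versions. The counting program and its strand setting are named in none of the sources. Table columns were matched to samples by hairpin and replicate number in their names. Of 67071 rows, 60704 received a symbol from gene name tables or GENCODE 29, and no row named no gene.

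Counts were tested with edgeR 4.0.16 (TMM scaling, filterByExpr with a minimum count of 10, quasi-likelihood test on group means, all 9 libraries in 1 fit) in R 4.3.3, with Benjamini-Hochberg adjustment over 16855 genes and a threshold of 0.05. limma 3.58.1 and DESeq2 1.42.0 served as alternatives, and the fit was tested on simulated data. CPM per kb uses the union of a gene's GENCODE 29 exons, so a gene with long rare isoforms is understated. Replicates of a group differed by more than sampling noise (chi-square per degree of freedom 1.72 to 2.83). Nothing in the labels ties replicates to separate cultures, so p-values reflect library-to-library variation that could be technical. The members and gene lists were chosen with earlier results of these data known. Named genes are the members, CHD9, the DHRS4 copies and up to 4 tested genes of each list with the smallest p over both hairpins. Also named are the neighbours of DHRS2, DHRS4 and DHRS1, and others that describe a list. The 5 genes most like DHRS2 and DHRS3, among the symbols not passed over, are named as well. RDH10, NYNRIN, NGDN and the genes named beside DHRS11 and DHRS9 or within the run around DHRS1 were added after their values were seen. For 1 gene of the list of retinoic acid-responsive genes, the result is not reported here.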

Additional observations from a re-analysis of the deposited data

Results flagged for a closer look

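The effects of the 2 CHD9 hairpins differed for 3 of the 4 DHRS genes tested (of 8) by the direct test of hairpin 1 against hairpin 2 (edgeR quasi-likelihood test, Benjamini-Hochberg), in which 29.2% of all genes were called. DHRS2, chosen for low values in these hairpin libraries, was lower with hairpin 1, with a log2 difference of -1.20. DHRS7 was higher with hairpin 1, by 0.12, and DHRS13 was higher by 0.14. Of these 3, DHRS2 kept its call under all 19 alternative settings, whereas DHRS7 lost it in 8 and DHRS13 in 2. The settings refit the same libraries, so for DHRS2 they are not free of its choice and only describe it.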

How the results depend on the processing

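Each of the 4 tested DHRS genes was recomputed in each comparison under other scaling, tests, filters and thresholds, on the compared groups alone, with a replicate block, with a correction for GC content and length, and without each library in turn. Of 300 recomputed values, 282 kept their direction and their side of the threshold, 18 kept their direction but no longer passed, and none reversed. Those against shGFP only describe members chosen with these results known. The 18 were DHRS7 with hairpin 1 against shGFP (8), DHRS7 between the hairpins (8) and DHRS13 between the hairpins (2). DHRS2 stayed between -2.72 and -2.63 with hairpin 1, between -1.50 and -1.42 with hairpin 2, and between -1.24 and -1.17 between the hairpins. Replicate numbers did not pair the samples: deviations of same-numbered libraries correlated at -0.022 to 0.040 over 9 pairs. With the replicate block 4, 4, 4 and 3 members were called over both hairpins, with hairpin 1, with hairpin 2 and between the hairpins, as without it. Leaving out single libraries gave 3 to 4 calls with hairpin 1 and 2 to 3 between the hairpins. The GC content and length correction had been planned with a genome sequence, and was run with GENCODE 29 transcripts instead, a choice made after seeing the data; its values for DHRS13 stand beside that gene. DHRS11 is limited by low counts, its control libraries lying at 2 to 4 counts.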

Other observations

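Genes known to respond to retinoic acid were listed beside the DHRS genes, since DHRS3 itself is one. Of 13 listed, 7 were tested, and over both hairpins 2 were called higher (CRABP2 and RARB) and 2 lower, NRIP1 among them, where 22.3% of all genes tested were called higher and 23.2% lower. The lower calls went from 2 to 1 without shGFP replicate 2. Over 18 alternative settings 2 to 3 were called higher and 1 to 2 lower. With hairpin 1 alone 2 were called higher and 2 lower, where 47.3% of all genes were called. Across 19 alternative settings these counts were 2 to 3 higher and 1 to 2 lower. With hairpin 2 alone 1 was called higher and none lower, where 35.7% of all genes were called. Across 19 alternative settings 1 to 2 were called higher and none lower. NRIP1, a nuclear receptor corepressor gene, was at 20.3, 16.7 and 18.7 CPM in shGFP, with hairpin 1 and with hairpin 2 (log2 change over both -0.20, SE 0.06). DHRS3, with a log2 change of -0.32 over both hairpins, and CRABP2, with 0.92, had opposite signs.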
